A study of Mus musculus with 24 samples.

Results

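The transcripts of 9 genes for secreted proteins were followed through the libraries: the 6 Reg genes Reg1, Reg2, Reg3a, Reg3b, Reg3d and Reg3g, and Dmbt1, Tff2 and Klk1. These are 9 of the 24421 genes in the deposited count files. They were picked by symbol as Reg family and injury-linked genes of the exocrine pancreas, with their levels across tissues and ages already known, so those levels are given as a description, and fits across all genes are read for these 9 as a description too.

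The 24 libraries hold total RNA of CD8 T cells (gated on CD45, CD3 and CD8) from pancreas and from blood of KC mice and of wild-type (WT) B6 mice. KC pancreas gave 12 libraries, of which 3 were from mice aged 4 weeks, 2 from 9 weeks, 3 from 13 weeks, 2 from 20 weeks and 2 from 30 weeks. KC blood gave 9 libraries, with 2 at 4 weeks, 1 at 9 weeks, 3 at 13 weeks, 1 at 20 weeks and 2 at 30 weeks. WT pancreas gave 1 library each at 9 and 30 weeks, and WT blood gave 1 library at 30 weeks. KC mice develop preinvasive lesions of the pancreas and serve as a cancer model. Their alleles and the driver of recombination are not given in the sources used here. Libraries are named by their titles, where P8 marks pancreas and B8 marks blood. The series' design text lists 4, 13, 20 and 30 weeks, and the 9-week age comes from the sample labels.

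Acinar cells of the exocrine pancreas make digestive enzymes and, beside them, small C-type lectins of the Reg family that are secreted into pancreatic juice. Reg1 and Reg2 are present in the healthy gland, and the Reg3 genes are known as acute-phase genes that pancreatitis and STAT3-activating cytokines induce strongly. Dmbt1 and Tff2 are products of mucosal epithelia, and Klk1 is a secreted protease. None of the 9 is known as a product of CD8 T cells. In bulk RNA, fewer cells of a type and less RNA per cell cannot be told apart.

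The 6 Reg genes lie within 98.2 kb of chromosome 6 (mm10, 78370657 to 78468872 in the GENCODE M21 annotation of that build), 4 on the plus and 2 on the minus strand. Dmbt1 lies on chromosome 7 at 131032053 to 131121630, Klk1 on chromosome 7 at 44225360 to 44229618 and Tff2 on chromosome 17 at 31141049 to 31144282. All 9 are protein-coding. Because the Reg genes are copies of each other, reads could in principle be shared. Reg1 and Reg2 were the most alike pair, with 78.7% identity of their coding bases and no shared run longer than 19 bases. Reg3b and Reg3g followed with 75.9% identity and a longest shared run of 35 bases.

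Reg1 and Reg2 carried most of the Reg reads, and Reg3a and Reg3b were the genes with the sharpest peaks in single libraries, so the 250 bases before their RefSeq start sites are shown (GRCm38.p6, 5′ to 3′). Capitals mark the TATA box TATAAA, the box TGGGAA on either strand (it reads TTCCCA on the other strand), the STAT-type palindrome TTCNNNGAA, and the E-box CANNTG where it stands in a pair with TTCCCA.
Reg1, chr6:78425733-78425982, plus strand: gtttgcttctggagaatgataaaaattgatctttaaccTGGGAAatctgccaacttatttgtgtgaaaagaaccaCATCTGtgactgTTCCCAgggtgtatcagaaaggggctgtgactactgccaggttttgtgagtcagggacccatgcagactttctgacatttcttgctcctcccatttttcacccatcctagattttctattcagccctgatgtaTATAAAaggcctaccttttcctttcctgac
Reg2, chr6:78404905-78405154, plus strand: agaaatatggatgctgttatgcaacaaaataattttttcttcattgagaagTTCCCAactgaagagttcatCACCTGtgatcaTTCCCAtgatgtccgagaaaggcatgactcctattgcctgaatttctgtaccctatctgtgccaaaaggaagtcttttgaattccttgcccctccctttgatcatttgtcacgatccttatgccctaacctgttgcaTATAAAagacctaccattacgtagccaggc
Reg3a, chr6:78380459-78380708, plus strand: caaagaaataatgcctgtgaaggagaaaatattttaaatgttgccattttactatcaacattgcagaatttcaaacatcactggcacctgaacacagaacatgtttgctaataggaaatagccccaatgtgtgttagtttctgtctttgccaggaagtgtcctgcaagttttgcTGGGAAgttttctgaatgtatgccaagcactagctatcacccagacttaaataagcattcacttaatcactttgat
Reg3b, chr6:78370635-78370884, plus strand: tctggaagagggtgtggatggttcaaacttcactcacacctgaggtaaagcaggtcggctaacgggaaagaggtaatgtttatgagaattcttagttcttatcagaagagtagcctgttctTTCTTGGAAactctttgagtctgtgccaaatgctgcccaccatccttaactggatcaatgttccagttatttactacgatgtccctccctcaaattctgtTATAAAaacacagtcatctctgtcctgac

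RefSeq promoters matched 7 of the 9 genes, the 6 Reg genes and Klk1, and all motifs were searched on both strands. TATAAA was found in 4 of the 7, against 12.4% of 32851 mouse promoters of the same length, and began 30 bases before the start in Reg1 and in Reg2, and 29 bases before it in Reg3b. It was also in 9 of 25 digestive enzyme promoters. TGGGAA was found in 6 of the 7, against 21.6% of promoters, and in 12 of 25 digestive enzyme promoters. TTCNNNGAA was found in Reg3b, 129 bases before the start, and in Reg3d, where it begins at the same base as a TGGGAA box, against 7.02% of promoters and 2 of the 25 enzymes. CANNTG was found in 7 of 7, against 66.2% and 21 of the 25 enzymes. A pair made of CANNTG and, 6 bases after it, TTCCCA stood in Reg1 and Reg2 and in no other of the 7. It is the kind of 2-part site that the acinar factor PTF1 is known to bind, and 0.0883% of promoters held it, with 0 of the 25 enzyme promoters among them. This spacing was chosen after the sequences were seen, and a match describes letters, not binding.

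Depth ran from 6352070 to 16716169 reads in genes per library, with a median of 9602257. T cell markers were high in every library. The levels are given as CPM, the reads of a gene scaled to a common number of reads in genes. The 9 listed CD8 T cell markers in the files, led by Cd3e, summed to 9520.1 to 21714 CPM in KC pancreas. The sum was 9739 to 17773 CPM in KC blood, 13763 and 11933 CPM in WT pancreas and 10667 CPM in WT blood. Cd3e averaged 7654 CPM in pancreas and Cd8a 1313 CPM, so the sum does not measure the purity of CD8 cells. Libraries also fell into 2 groups of 12, here called carry-over sets, by which other libraries held a trace of the genes peaking in a given library. The 9 genes and the genes of the lists were not used for this. A trace gene had a median of 0.206% of its source's level elsewhere in the same set and a median of 0 in the other set. Traces were not confined to a set: reads were present in 92.4% of gene and library combinations of the same set and in 48.1% of those of the other set. The sets were formed from these same traces, so this contrast is no check of them. Set 1 holds the KC pancreas libraries of 4 and 13 weeks, the 3 WT libraries and the KC blood libraries Sample_42B8, Sample_43B8 and Sample_131B8. Set 2 holds KC pancreas at the remaining ages (9, 20 and 30 weeks) and 6 KC blood libraries. The sets therefore overlap with age in KC pancreas, and at 9 and 30 weeks they coincide with genotype.

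The Reg family split along these sets. All 12 libraries of set 1 held Reg reads, 31063 in all, and the 12 libraries of set 2 held 5. The 18427 Reg reads of Sample_42P8, a 4-week KC pancreas, were 59.3% of those in all 24 libraries. Dmbt1 alone was detected in 24 of 24 libraries.

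**Figure D1:**
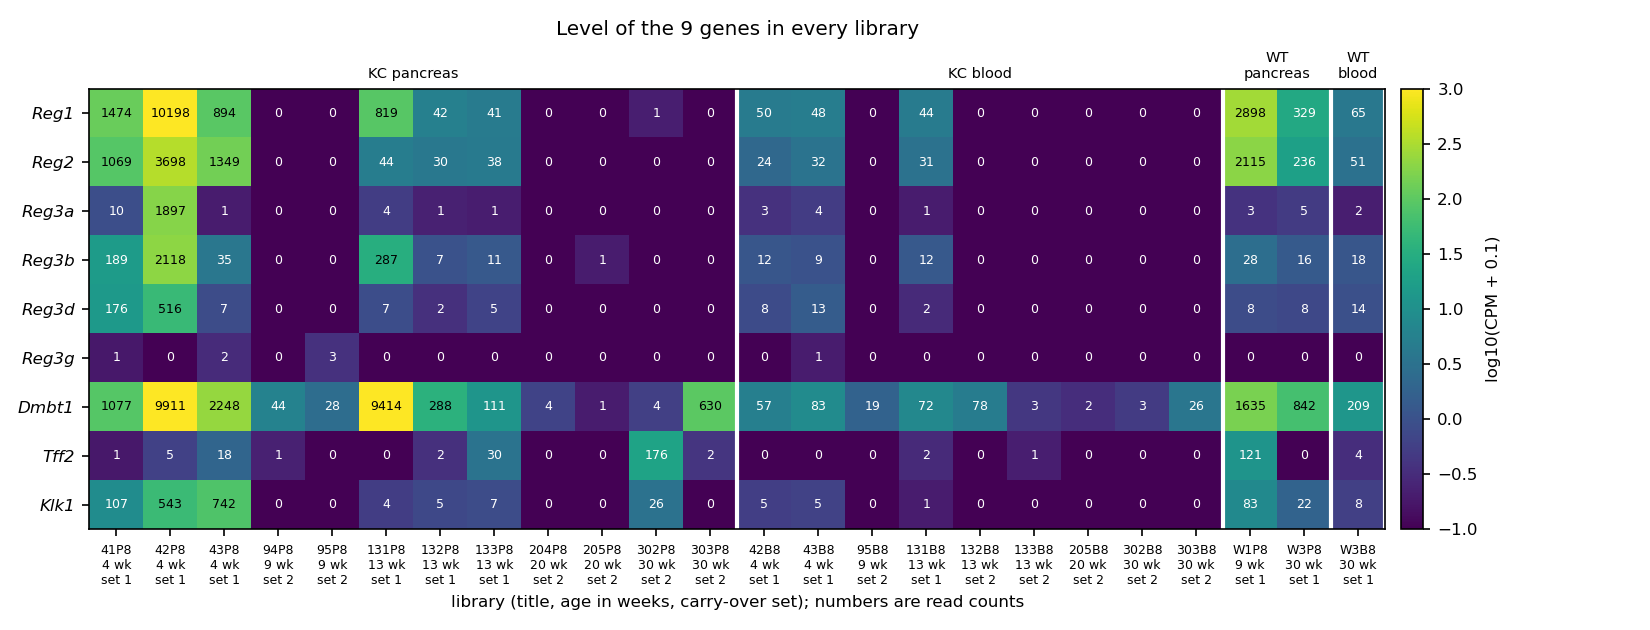
Level of the 9 genes (rows) in each of the 24 libraries (columns, with title, age in weeks and carry-over set), as colour on a log10(CPM + 0.1) scale and as the printed read count. The Reg rows hold at most 3 reads in any column of set 2, while Dmbt1 stays visible in Sample_303P8 with 630 reads and Tff2 in Sample_302P8 with 176 reads.

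Reg1, the main secretory Reg protein of acinar cells (also called lithostathine), was highest in 1 young KC pancreas, Sample_42P8, followed by the WT pancreas Sample_W1P8 of 9 weeks at 275.2 CPM. It had 120.1, 1000.4 and 94.2 CPM in the KC pancreas libraries of 4 weeks (Sample_41P8, Sample_42P8 and Sample_43P8) and 0 in both libraries of 9 weeks. At 13 weeks Sample_131P8 had 90.5 CPM, close to Sample_43P8, while Sample_132P8 and Sample_133P8 had 5.43 and 4.45 CPM. At 20 weeks both libraries had 0 and at 30 weeks Sample_302P8 had 1 read and Sample_303P8 none.

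Blood of set 1 held a narrow level of Reg1: 4.55, 4.94 and 4.48 CPM in the KC blood libraries Sample_42B8, Sample_43B8 and Sample_131B8, and 3.89 CPM in the WT blood library Sample_W3B8. These were 0.238% to 0.302% of the Reg1 CPM summed over set 1. The 0.206% median of the trace genes is a share of the single highest library instead, so the percentages are not on the same scale. The highest library for Reg1, Sample_42P8, had 1000.4 CPM. The 6 blood libraries of set 2 had 0 reads of Reg1 in all, which allows up to 0.0505 CPM over them (counting error only). The part of carry-over in the low levels of set 1 was not tested. KC pancreas Sample_132P8 and Sample_133P8 lay at 1.10 and 0.901 times the highest set 1 blood library, so Reg1 was 5.43 CPM in the first, against 4.94 CPM in that blood library, and within the range of blood in the second. The other 4 KC pancreas libraries of set 1 lay at 18.3 (Sample_131P8) to 203 times (Sample_42P8) that blood level.

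Reg2, the close paralog of Reg1, had 87.1, 362.8 and 142.1 CPM at 4 weeks and 0 at 9, 20 and 30 weeks in KC pancreas. At 13 weeks it had 4.86, 3.88 and 4.13 CPM in Sample_131P8, Sample_132P8 and Sample_133P8, against 2.18 to 3.29 CPM in blood of set 1. The 3 libraries of 13 weeks thus lay at 1.18 to 1.48 times the highest blood library, and Sample_131P8 did not stand out from the other two, unlike for Reg1. The ratio of Reg2 to Reg1 reads shows the same split. It was 0.725 in Sample_41P8, 0.363 in Sample_42P8 and 1.51 in Sample_43P8, 0.730 in WT Sample_W1P8 and 0.717 in WT Sample_W3P8, and 0.480 to 0.785 in set 1 blood, but 0.0537 in Sample_131P8. Per kb of exon the ratio in Sample_131P8 was 0.0510.

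**Figure D2:**
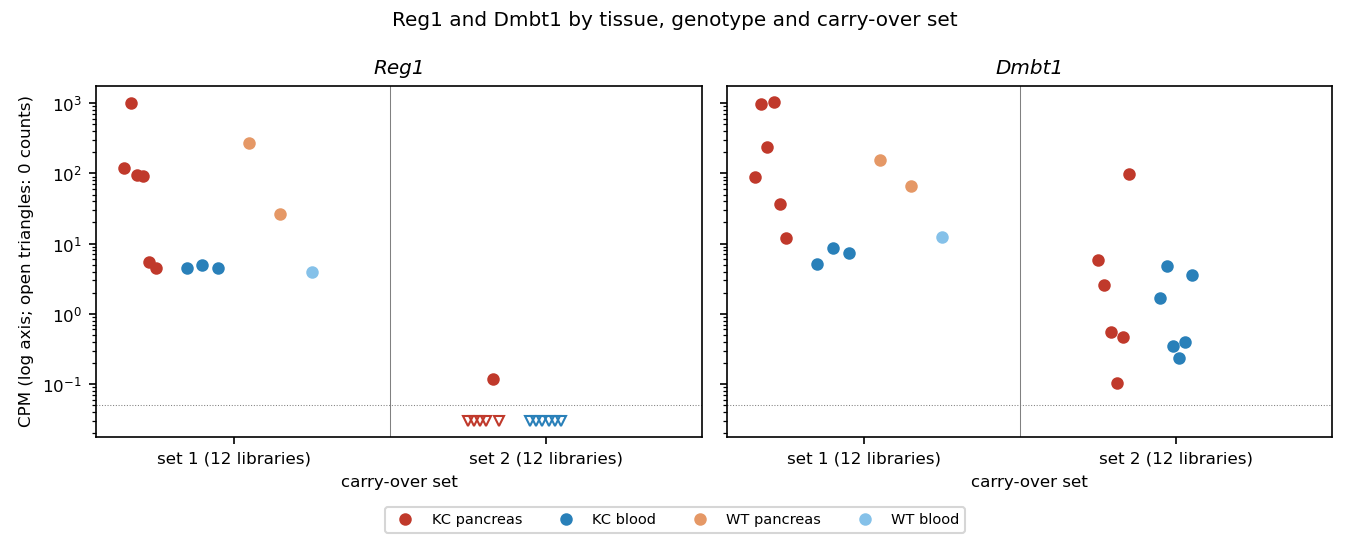
Reg1 (left) and Dmbt1 (right) in CPM on a log axis, 1 point per library, by carry-over set and group, with open triangles for 0 reads. Reg1 in the 4 blood libraries of set 1 lies between 3.89 and 4.94 CPM and all blood libraries of set 2 are at 0, while Dmbt1 has reads in every library and reaches 99.2 CPM in 1 pancreas library of set 2.

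Reg3b, the pancreatitis-associated protein and a lectin that binds bacteria, had 15.4, 207.8 and 3.69 CPM in KC pancreas of 4 weeks and 31.7 CPM in Sample_131P8 at 13 weeks. It had 0.905 and 1.19 CPM in Sample_132P8 and Sample_133P8, which lies within or beside the 0.926 to 1.22 CPM of set 1 blood. KC pancreas of 9, 20 and 30 weeks held 1 Reg3b read in 6 libraries. Sample_42P8 and Sample_131P8 were the libraries high in this gene, the first at 170.2 times the highest set 1 blood library.

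Reg3a, another secreted lectin of the Reg3 group, was high in 1 library. Sample_42P8 had 186.1 CPM (1897 reads, 98.2% of its reads in all 24 libraries), and the next highest library, Sample_41P8, had 0.814 CPM. Reg3d, of the same group, had 14.3 and 50.6 CPM in Sample_41P8 and Sample_42P8 and 0.737 CPM in Sample_43P8. The other set 1 pancreas libraries had 0.258 to 0.774 CPM of Reg3d, against 0.203 to 1.34 CPM in set 1 blood, so the groups overlapped outside Sample_41P8 and Sample_42P8. Reg3g, the antibacterial lectin of the gut epithelium, was hardly detected: it had 1 read in Sample_41P8, 2 in Sample_43P8, 3 in Sample_95P8 and 1 in the blood library Sample_43B8, and 0 in the other 20 libraries. At up to 3 reads per library no order between libraries was detectable at this depth.

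The make-up of the Reg reads differed between libraries that were all rich in them. Reg1 and Reg2 together with little Reg3 made up the reads of the WT pancreas library Sample_W1P8, where Reg3b was 0.554% (exact 95% interval 0.369% to 0.800%) of 5052 Reg reads. Reg3b was 24.7% (22.3% to 27.3%) of the 1161 Reg reads of Sample_131P8, 11.5% (11.04% to 11.96%) of those of Sample_42P8, 6.47% (5.61% to 7.43%) of those of Sample_41P8 and 1.53% (1.07% to 2.12%) of those of Sample_43P8. Reg3a was 10.3% (9.86% to 10.7%) of the reads of Sample_42P8 and at most 0.345% in Sample_41P8, Sample_43P8 and Sample_131P8. Reg2 was 59.0% (56.9% to 61.0%) of the reads of Sample_43P8, the only one of these 5 libraries where it exceeded Reg1. The intervals cover counting error within a library, not differences between mice.

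Dmbt1 encodes a large secreted scavenger-receptor-domain protein of mucosal surfaces that binds bacteria and mucins. It was the most widely detected of the 9. KC pancreas had 87.7, 972 and 237 CPM at 4 weeks, 5.79 and 2.56 CPM at 9 weeks, and 1041, 37.2 and 12.1 CPM at 13 weeks (Sample_131P8, Sample_132P8 and Sample_133P8). It had 0.545 and 0.103 CPM at 20 weeks, and 0.471 and 99.2 CPM at 30 weeks (Sample_302P8 and Sample_303P8). The highest level of the series was thus in a 13-week library, and a 30-week library lay above Sample_41P8 of 4 weeks.

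KC blood had 5.18 and 8.54 CPM of Dmbt1 at 4 weeks, 1.70 CPM at 9 weeks, 7.32, 4.75 and 0.348 CPM at 13 weeks, 0.237 CPM at 20 weeks and 0.397 and 3.62 CPM at 30 weeks, and WT blood had 12.5 CPM. Set 1 blood made up 0.196% to 0.473% of the Dmbt1 CPM summed over set 1. Against the highest blood library of its own set, Dmbt1 was 83.2-fold higher in Sample_131P8, 77.8-fold in Sample_42P8 and 20.9-fold in Sample_303P8, and 2.98-fold in Sample_132P8. Sample_94P8 lay at 1.22 times it. In Sample_133P8 (0.964 times) and in Sample_95P8, Sample_204P8, Sample_205P8 and Sample_302P8 (0.0217 to 0.539 times) it was not above that blood library. Sample_303P8 carries no Reg read at all, so it is the 1 library with a high level of Dmbt1 and none of the Reg family.

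Tff2, a trefoil peptide that protects the gastric mucosa, was highest in a library nearly without Reg reads. It had 176 reads (20.7 CPM) in Sample_302P8, a 30-week KC pancreas, 121 reads (11.5 CPM) in the 9-week WT pancreas Sample_W1P8, 30 reads (3.26 CPM) in Sample_133P8 and 18 reads (1.90 CPM) in Sample_43P8. No other library of any tissue had more than 5 reads, and the 10 blood libraries had 7 reads together. Of all Tff2 reads of the series 48.5% were in Sample_302P8, which had 1 Reg read, while Sample_W1P8 had 5052 and Sample_43P8 had 2288.

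Klk1, a tissue kallikrein that releases kinins from kininogen, was highest in the 4-week libraries: 8.72, 53.3 and 78.2 CPM in Sample_41P8, Sample_42P8 and Sample_43P8. It had 0.442 to 0.760 CPM at 13 weeks, against 0.102 to 0.514 CPM in set 1 blood, and 0 at 9 and 20 weeks. At 30 weeks Sample_302P8 had 26 reads (3.06 CPM) and Sample_303P8 had 0. Klk1 has many near copies in the mouse, and 13 Klk1b paralogs were listed as a check of shared reads. In KC pancreas 10 of the 13 had no read in any library and their sum stayed at or under 0.489 CPM. The exception was Klk1b5 with 10.3 CPM in the WT pancreas Sample_W1P8, beside 7.88 CPM of Klk1 there.

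Digestive enzymes are the defining products of acinar cells, and 29 of 30 listed genes were in the files. Their summed level was 1809, 10079.7 and 5252 CPM in KC pancreas of 4 weeks, 111, 501 and 107 CPM at 13 weeks, and 0.131 to 59.0 CPM at 9, 20 and 30 weeks. WT pancreas had 4473 and 1299 CPM, set 1 blood 80.4 to 88.8 CPM and set 2 blood 0.237 to 1.58 CPM. At 13 weeks most of the sum of Sample_132P8 was 1 trypsinogen, Prss2, and the whole sum of Sample_303P8 was the carboxypeptidase Cpb1 (375 reads).

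The Reg sum exceeded the enzyme sum in Sample_131P8 alone: 128.4 CPM of Reg genes beside 111 CPM of enzymes, a log2 ratio of 0.21 and 0.58 per kb of exon. In the other 7 set 1 pancreas libraries the log2 ratio was -5.56 to -2.48, and in set 1 blood it was -3.31 to -2.97. Without Reg1 the ratio was below 0 in Sample_131P8 too, at -1.56, so the excess rests on that gene. Dmbt1 reads were 9.37 times the enzyme reads in Sample_131P8 and 1.68 times in Sample_303P8, and 0.0347 to 0.113 times in the other set 1 pancreas libraries. Dmbt1 reads also exceeded enzyme reads in libraries nearly without enzymes, such as Sample_94P8 with 44 Dmbt1 reads and 1 enzyme read, and in the blood libraries Sample_132B8 (78 Dmbt1 reads) and Sample_303B8 (26 Dmbt1 reads). These ratios are of reads, and the Dmbt1 transcript is long (6.695 kb of exon, against 0.904 kb for Reg1). Per kb, Dmbt1 was at 155 CPM and Reg1 at 100.2 CPM in Sample_131P8, while Dmbt1 was at 145 CPM and Reg1 at 1107 CPM in Sample_42P8.

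**Figure D3:**
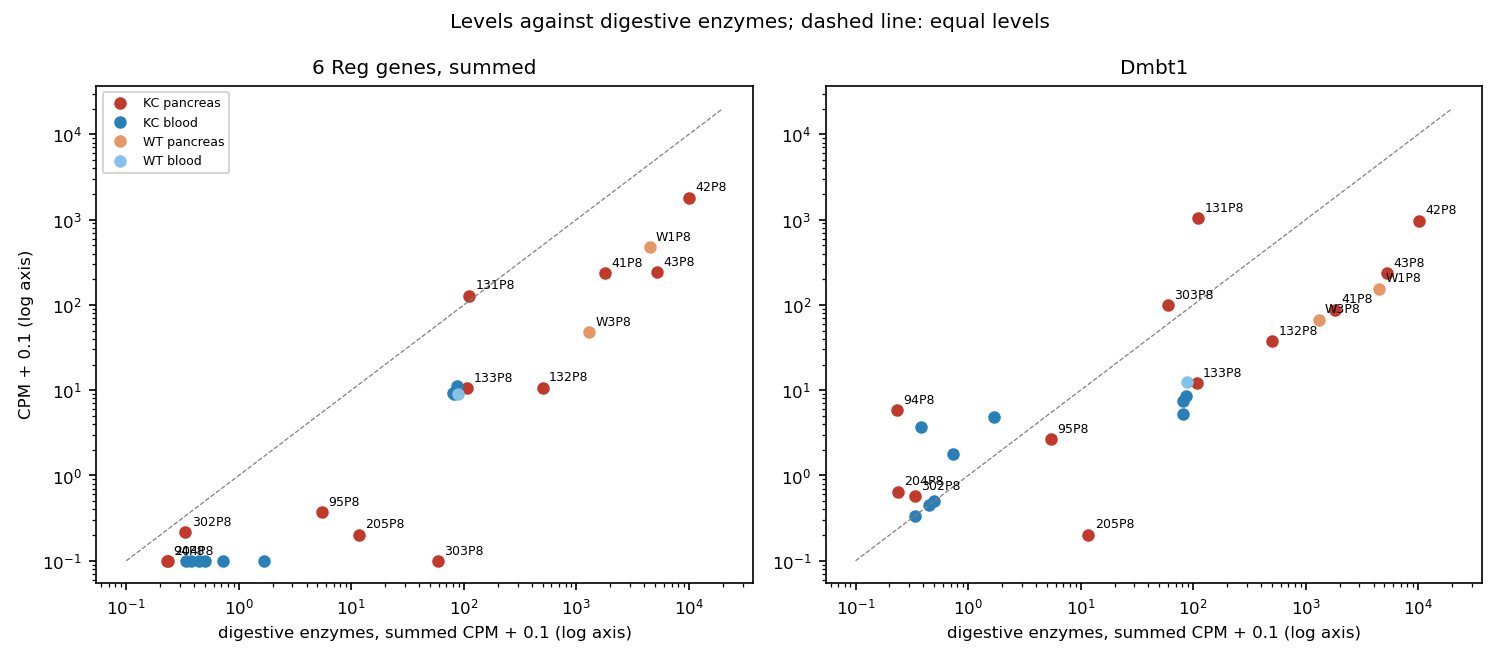
Summed CPM of the 6 Reg genes (left) and CPM of Dmbt1 (right) against summed CPM of the digestive enzymes, both axes log with 0.1 added, 1 point per library and pancreas libraries named. For the Reg sum Sample_131P8 is the one pancreas library with reads above the dashed line of equal levels, and for Dmbt1 Sample_131P8 (1041 CPM) and Sample_303P8 (99.2 CPM) lie above it, as do libraries of set 2 at the lower left that hold few reads of either.

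Genes of other epithelial states also peaked in single libraries. In Sample_131P8 the mucins Muc6 (112 CPM), Muc4 (23.9 CPM) and Muc1 (9.73 CPM) and the ductal gene Spp1 (44.7 CPM) had reads. Sample_302P8, high in Tff2, had 33.0 CPM of Gkn2, a gastric mucosa gene, and 18.6 CPM of Muc6. Sample_303P8, high in Dmbt1, had 115 CPM of Gkn1 and 37.5 CPM of the gastric mucin Muc5ac. Sample_133P8 had 334 CPM of the keratin Krt18 and 62.6 CPM of Muc5ac. Muc6 was not confined to these libraries, with 338 CPM in Sample_132P8 and 152 CPM in the blood library Sample_131B8. Of the 16 listed genes of mucous metaplasia, Tff3, Anxa10 and Reg4 had no read in any KC pancreas library, and the ductal genes Krt7, Cftr and Cldn4 had none. Of the acinar transcription factors, Ptf1a and Rbpjl had no read in any of the 24 libraries, Nr5a2 had 48 reads in Sample_43P8 and at most 1 elsewhere, and Bhlha15 had 10 reads in Sample_41P8 and 111 in the blood library Sample_95B8. Sample_43P8, the library highest in Klk1 and in the Reg2 share of Reg reads, was also the highest pancreas library in the fibroblast markers Col1a2 (221 CPM), Sparc (143 CPM) and Bgn (130.3 CPM), and Sample_41P8 was the highest pancreas library in insulin (Ins2, 15.5 CPM). Sample_302P8 was the highest pancreas library in the macrophage markers Lyz2 (110.9 CPM) and Itgam (126.0 CPM), while the blood library Sample_95B8 had more Lyz2 (290.1 CPM). The part of such cells in the levels of the 9 genes was not tested.

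Pancreas was set against blood in the 21 KC libraries, allowing for age, by edgeR's quasi-likelihood test with Benjamini-Hochberg adjustment over 11059 genes. A gene was called at an adjusted p under 0.05, and 10 genes were called, 0.0904% of those tested (0.0723% higher in pancreas and 0.0181% lower). Of the 9 genes 7 passed the filter on low counts (not Reg3a and Reg3g) and 1, Dmbt1, was called, which is read as a description because the choice of the genes used this contrast. All 7 fitted log2 fold changes were positive: 4.63 ± 0.97 (SE) for Dmbt1, 5.13 ± 1.42 for Klk1, 5.08 ± 1.57 for Tff2, 4.30 ± 1.24 for Reg1, 4.17 ± 1.46 for Reg3b, 2.74 ± 1.35 for Reg2 and 2.62 ± 1.38 for Reg3d. The median over all genes was -0.12. Within set 1 alone Dmbt1 was at 5.20 ± 1.38 and Reg1 at 4.06 ± 1.58, and within set 2 alone Dmbt1 was at 2.94 ± 1.68, neither called. The count of 1 fell to 0 without Sample_42P8, Sample_131P8 or Sample_303P8, or without the blood library Sample_42B8, Sample_43B8, Sample_132B8 or Sample_302B8. It was 2 (Dmbt1 and Reg1) without Sample_131B8, where 21 of 11032 genes were called. Between the 9 KC pancreas libraries and the blood libraries with the same number in their titles, Dmbt1 was higher in pancreas in 8 and lower in 1, Reg1 and Reg3b were higher in 6 and at 0 in both tissues in 3, and Klk1 was higher in 6 with 3 at 0 in both. The blood libraries numbered like Sample_132P8 and Sample_133P8 are of the other set. Among the 6, Reg1 in Sample_302P8 and Reg3b in Sample_205P8 were each 1 read against 0 in blood.

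The 18 digestive enzymes tested in that fit all had positive log2 fold changes, with a median of 2.69, and 0 were called (smallest adjusted p = 0.18 with edgeR's quasi-likelihood test). At an unadjusted p under 0.05 edgeR had 9 of them, and DESeq2 called 2 at its adjusted p. Of the marker lists of blood cells, the platelet gene Ppbp (-5.14) and the erythroid gene Alas2 (-4.12) were lower in pancreas on the log2 scale. The list of cytokines, receptors and signal transducers that are known to act upstream of Reg genes, and the proposed Reg receptor Extl3, had 11 of 18 genes tested and 0 called by edgeR (1 at an unadjusted p under 0.05, and 1 called by DESeq2). Il22, a T cell cytokine that induces Reg3 genes in epithelium, had no read in any of the 24 libraries.

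Across ages in KC pancreas the fitted slopes of these genes had both signs. The slope was fitted per 10 weeks over the 12 libraries with edgeR's quasi-likelihood test, where 28 of 9555 genes were called (0.293%, of which 0.251% falling and 0.0419% rising). Of the 9 genes 6 were tested and 1, Reg2, was called, again read as a description. The slopes were -6.04 ± 1.16 (SE) log2 units for Reg2, -4.84 ± 1.19 for Reg1, -4.52 ± 1.34 for Reg3b, -1.88 ± 0.84 for Klk1, -1.27 ± 1.09 for Dmbt1 and 1.36 ± 0.75 for Tff2, against a median of -0.04 over all genes. Libraries at 0 make the size of the Reg slopes depend on the fit. Of 18 tested digestive enzymes 13 were called falling and 0 slopes were positive, with a median slope of -6.16, such as Ctrl, a chymotrypsin-like protease, at -6.63 ± 1.06 and Cel, carboxyl ester lipase, at -6.67 ± 1.15. Of the fibroblast markers Col3a1 (-6.02 ± 1.21) and Bgn (-5.32 ± 1.11) also fell. Over all genes 0 were called for age with the carry-over set as a term, without the 4-week libraries, or in set 1 or set 2 alone. The calls of the enzymes and fibroblast markers were thus lost in each of these fits.

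Age and carry-over set overlap in these libraries. Within set 1, from 4 to 13 weeks, the slope was -5.12 ± 1.63 for Reg2, -5.97 ± 1.92 for Klk1, -3.36 ± 1.53 for Reg1, -2.43 ± 1.94 for Reg3b and 0.25 ± 1.33 for Dmbt1. Within set 2, from 9 to 30 weeks, Dmbt1 was the only one of the 9 tested, at 1.71 ± 1.01. The Dmbt1 estimate was negative over all libraries and positive within each set, but in set 1 it was smaller than its SE. In set 2 Sample_303P8 of 30 weeks had 99.2 CPM, beside 0.103 to 5.79 CPM in the other KC pancreas libraries. None of these slopes was called. With the set as a term Reg1 was at -0.97 ± 1.26 and Reg2 at -3.99 ± 1.40. The positive Tff2 slope rests on Sample_302P8 and was -0.66 without it. The call of Reg2 was lost without Sample_42P8, Sample_204P8 or Sample_303P8 (slopes of -5.45, -5.66 and -6.20). Without Sample_131P8 3 of the 9 genes (Reg1, Reg2 and Reg3b) were called, where 29 of 9450 genes were called.

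KC pancreas was compared with WT pancreas at 9 and 30 weeks, the ages with a WT library. Reg1 and Reg2 were lower in KC. Reg1 had 0 reads in both KC libraries of 9 weeks, against 2898 in WT, and 1 and 0 reads in the KC libraries of 30 weeks, against 329 in WT. Pooled over both ages Reg1 was at 0.0300 CPM in KC and 140 CPM in WT, a ratio of KC over WT of 0.000214 (exact 95% interval 5.42e-06 to 0.00119, counting error only). Reg2 had 0 reads in the 4 KC libraries, against 2115 and 236 in WT, and was at least 1134-fold lower in KC, taking 3 reads over the group as the limit of 0.

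The fit covered all 14 pancreas libraries, with 1 level per genotype and age, so that the single WT library of an age was assumed to vary like the other groups. edgeR's quasi-likelihood test called 28 of 12374 genes (0.226%, of which 0.218% lower and 0.00808% higher in KC), and called 2 of 8 tested genes of the 9, Reg1 (adjusted p = 2.2e-07) and Reg2 (adjusted p = 2.61e-05). Without Sample_W1P8, the only WT library of its age, the fit compared the other age alone. There both lost the call, with log2 fold changes of -8.20 for Reg1 and -10.27 for Reg2. Without the KC library Sample_95P8 Reg2 lost the call. The genes were picked with their levels in these libraries known, so these calls are no independent support. Genotype and carry-over set cannot be told apart here, since the 4 KC libraries are of set 2 and both WT libraries of set 1. The Reg1 levels of Sample_W1P8 and Sample_W3P8 were 55.7 and 5.32 times the highest blood library of set 1. The KC libraries of 4 weeks, which are also of set 1, held Reg1 at 94.2 to 1000.4 CPM, beside 275.2 and 26.3 CPM in the 2 WT libraries. The KC libraries of 13 weeks are of set 1 as well. They held 90.5 CPM (Sample_131P8), 5.43 CPM (Sample_132P8) and 4.45 CPM (Sample_133P8). Within set 1 KC libraries thus lay both above and below the WT levels, at ages that differ from those of WT.

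The other Reg genes were low in WT as well. Reg3b had 0 reads in the 4 KC libraries, against 28 and 16 in WT (1.28 to 2.66 CPM beside 0.926 to 1.22 CPM in set 1 blood). It was at least 21.2-fold lower in KC by its reads and not called (adjusted p = 0.401 with edgeR's quasi-likelihood test). Reg3d had 0 reads, against 8 and 8 in WT, and Reg3a 0 reads, against 3 and 5 in WT, neither of which was called (adjusted p = 0.757 and 0.832 in that fit).

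Dmbt1, Tff2 and Klk1 were not called between the genotypes. Dmbt1 had 5.79 and 2.56 CPM in KC and 155 CPM in WT at 9 weeks, but 0.471 and 99.2 CPM in KC and 67.2 CPM in WT at 30 weeks, where the groups overlap (log2 fold change -2.77 ± 1.02, adjusted p = 0.749). Without Sample_303P8, the KC library at 99.2 CPM, Dmbt1 was called lower in KC (log2 fold change -6.08 ± 1.47, adjusted p = 0.0267 with edgeR). Tff2 had 1 and 0 reads in KC and 121 in WT at 9 weeks, and 176 and 2 reads in KC and 0 in WT at 30 weeks, so the ages pointed in opposite directions, a difference that was not tested (adjusted p = 1.0 for their mean). Klk1 had 0 reads in KC and 83 in WT at 9 weeks, and 26 and 0 reads in KC and 22 in WT at 30 weeks (adjusted p = 0.784). All 3 adjusted p are from edgeR's quasi-likelihood test over 12374 genes.

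**Figure D4:**
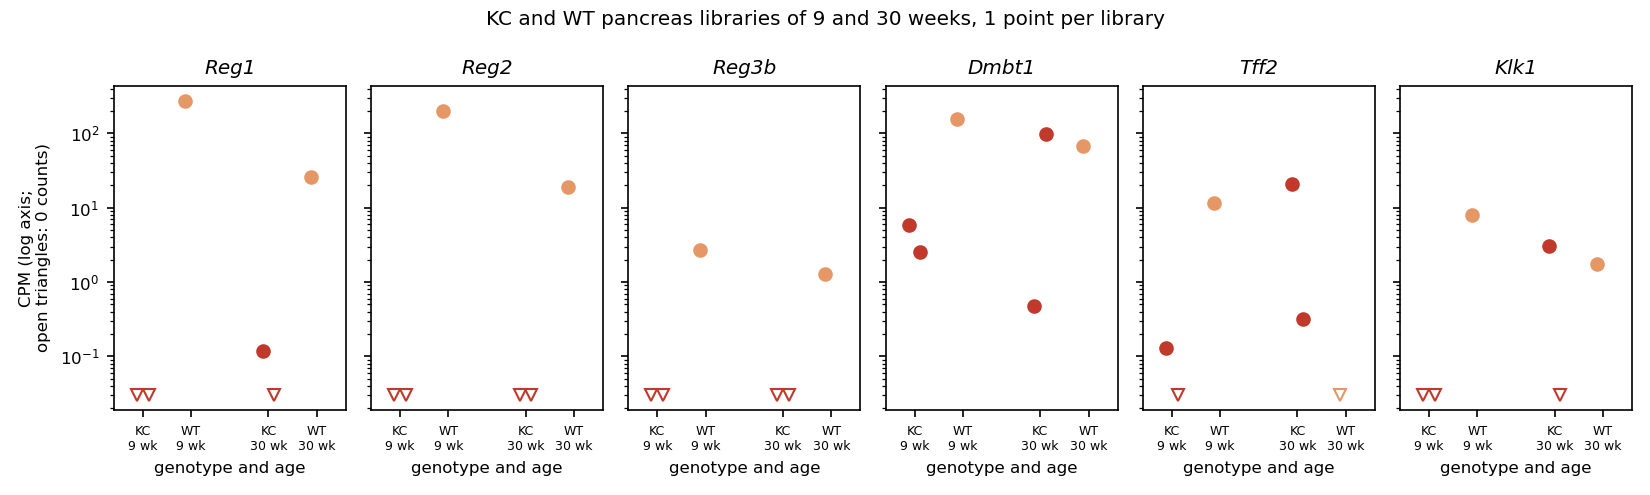
CPM on a log axis of 6 of the genes in KC and WT pancreas libraries of 9 and 30 weeks, 1 point per library, with open triangles for 0 reads. Reg1, Reg2 and Reg3b sit at 0 or 1 read in all KC libraries and above 1 CPM in both WT libraries, while Dmbt1, Tff2 and Klk1 overlap or change places at 30 weeks.

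Digestive enzymes were lower in KC as well. Of 22 tested enzymes 18 were called lower in KC and 4 were not called, 1 of these with a positive estimate. Those called include chymotrypsinogen Ctrb1 (adjusted p = 2.25e-31) and the ribonuclease Rnase1 (adjusted p = 3.05e-13 in the same edgeR fit). The secretory granule genes Sycn (adjusted p = 0.0111) and Zg16 (adjusted p = 0.0243) were lower in KC too. edgeR called 0 of the 10 tested genes of mucous metaplasia (3 at an unadjusted p under 0.05, 1 called by DESeq2) and 0 of the 15 tested upstream signalling genes (1 at an unadjusted p under 0.05, 0 by DESeq2). Most of the 18 enzyme calls were lost without Sample_W1P8, the only WT library of its age. Most were also lost without the KC library Sample_95P8. Genotype and carry-over set cannot be told apart for the enzymes either.

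The genes most like each member over the 14 pancreas libraries, by Pearson's r of log2(CPM + 1) among 10536 genes, were found for 8 of the 9 and not for Reg3g, which had reads in 3 of these libraries. Reg2 was closest to the elastase Cela1 (0.996), the lipase Pnlip (0.992) and the carboxypeptidase Cpa1 (0.986). Reg1 was closest to Cela1 (0.949), Pnlip (0.948) and Ctrb1 (0.945). Klk1 was near Mif4gd (0.933) and the enzymes Cela3b (0.913) and Ctrl (0.895), and Dmbt1 was nearest to Cpb1 (0.854), then Klrg1 (0.821) and Cltb (0.782). The nearest genes of Reg3a (Cd300lg, Atat1 and Mzf1, 0.993 to 0.994), Reg3b (Gcnt1, Ifitm1 and Raph1, 0.882 to 0.922), Reg3d (Gpr35, Zfp54 and Rrm2, 0.964 to 0.971) and Tff2 (Cacna1d, Wdr90 and Zfp689, 0.881 to 0.901) were in none of the lists. These are descriptions over libraries that share sets and differ in depth, and for Reg3a the likeness rests on Sample_42P8. Among the members themselves Reg1 and Reg2 correlated at 0.954, Reg1 and Reg3b at 0.866 and Reg1 and Dmbt1 at 0.848, while Tff2 and Reg1 were at 0.104 over the same 14 libraries.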

How the data were processed

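CD8 T cells were sorted from pancreas or blood and total RNA was extracted with a column kit, per the labels. The authors deposited 1 file per library with the read count of each of 24421 genes and 5 tallies of unassigned reads, not normalised. The submitters' processing notes name TopHat, SAMtools, HTSeq and DESeq and the build mm10, and strand use is not given in the sources used here, so overlapping genes cannot be told apart. Reads in genes were 11.7% to 32.5% of those tallied.

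CPM were computed from reads in genes. Groups and ages came from the labels, which do not say that libraries of a group are separate animals, so p-values measure only the spread between these libraries. Models were fitted in edgeR 4.0.16 (R 4.3.3) with two-sided quasi-likelihood F-tests, the robust option, TMM factors and the default low-count filter, filterByExpr, at 10 reads. The SE of a log2 value is that value divided by the root of F, taken as positive. DESeq2 1.42.0, RLE scaling, no filter, other terms and leaving out libraries were alternatives. Exact intervals were at 95%, and a 0 was limited at 3 counts.

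Carry-over sets came from 93 genes with at least 100 CPM in 1 of 14 source libraries and at most 5% of that elsewhere. Libraries were grouped by Ward clustering of the centred log10 levels of these genes relative to their source. At most 2 libraries changed set when any single source was dropped. The sets were derived from the data.

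The 9 genes and the 13 lists (150 genes, 146 in the files) were chosen with earlier results of these data known. Beside the 9, genes were named if called in a list, among the 3 highest of a list in pancreas, or among the 3 most correlated with a member. Muc4, Muc1, Gkn2, Il22 and Extl3, the Klk1b paralogs and markers listed at 0 were named after their values were seen. Fits were tested on simulated counts. Of genes changed by a log2 of 1, 2 and 4, 0%, 8.96% and 48.5% were recovered between tissues (10918 genes) and 0% at each size between genotypes (11852 genes). For slopes the shares were 4.48%, 29.9% and 89.4% (9433 genes).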

Additional observations from a re-analysis of the deposited data

Results flagged for a closer look

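Reg3g in the KC blood library Sample_43B8 (0.103 CPM, a single read) lay apart from the other 8 KC blood libraries, all at 0. The criterion, Dixon's 95% critical value, flags about 1 in 20 groups by chance where values follow a normal distribution, which a group of zeros does not, and 1 read is at the limit of the depth.

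The WT blood library of 30 weeks entered no fitted comparison, though it is among the set 1 blood libraries that levels were set beside, and held reads of 7 of the 9 genes above the limit that a count of 0 allows (3 reads). It had 65 reads of Reg1, 51 of Reg2, 18 of Reg3b, 14 of Reg3d, 209 of Dmbt1, 4 of Tff2 and 8 of Klk1. The Reg1 level of this library, 3.89 CPM, was 0.238% of the Reg1 CPM summed over its carry-over set, and its enzyme sum was 88.8 CPM.

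Tff2 differed between KC and WT pancreas in opposite directions at 9 and 30 weeks, and the difference between the ages was not tested. At 9 weeks it had 0.131 CPM in Sample_94P8 and 0 CPM in Sample_95P8, both KC, against 11.5 CPM in the WT library Sample_W1P8. At 30 weeks it had 20.7 CPM in Sample_302P8 and 0.315 CPM (2 reads) in Sample_303P8, both KC, against 0 CPM in the WT library Sample_W3P8.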

How the results depend on the processing

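Between tissues, 1 of the 9 genes was called. The count was 0 of 7 tested with RLE scaling, with the set as a term and in set 1 alone. With no age term 3 of the 9 were tested and 0 called, where 65 of 8361 genes were called. Without the 4-week libraries 4 were tested and 0 called, where 4 of 10668 genes were called. In set 2 alone 1 was tested and not called, where 2 of 11293 genes were called. DESeq2 called 2, where it called 479 of all 11059 genes tested. The title number as a replicate block gave 2, where 14 of 11695 genes were called, and leaving out 1 library gave 0 to 2. The labels do not say whether a title number marks 1 mouse. In the 7 of 9 KC pairs that could be checked, deviations from group-and-age means correlated at -0.0553 to 0.00863, and 0 correlated best with their own number. This check cannot decide on pairing. After centring, the 2 blood libraries of 4 weeks, and the 2 of 30 weeks, mirror each other, and the best match was sought over blood of all ages. The number was not used as a pairing in the main fit. For age, 1 gene was called. It was 0 of 6 tested with RLE scaling and with the set as a term, and 0 of 5 tested in set 1 alone. Without the 4-week libraries it was 0 of 3 tested, and in set 2 alone 0 of 1 tested. With no filter 5 were called, where 686 of all 14417 genes were called. With DESeq2 2 were called, where 422 of all 9555 genes were called. Leaving out 1 library gave 0 to 3. Between genotypes 2 were called, with 0 to 3 on leaving out 1 library, and the set as a term could not be fitted. Reg sums exceeded enzyme sums in 1 pancreas library, and in 0 without Reg1.

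The Tff2 difference between genotypes (log2 1.20) was -0.068 with ages ignored and ran from -7.26 to 9.65 on leaving out 1 library, where it was -0.067 without Sample_94P8, -1.33 without Sample_302P8 and -7.26 without Sample_W3P8. That of Klk1 (log2 -4.57) ran from -9.11 to 0.030, the last without Sample_W1P8. Sample_W1P8 and Sample_W3P8 were each the only WT library of their age. A fit without either compared KC and WT at the other age alone. The extremes of both genes came from these fits, so they are differences at single ages. The cause of the other shifts was not tested. Over all genes, 10 calls between tissues ranged from 2 to 479, 28 for age from 0 to 686 and 28 between genotypes from 4 to 158. The sets used in set 1 or set 2 alone were chosen after the data were seen. Levels under 3 reads per library are at the limit of depth.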
